A study of Mus musculus with 8 samples.

Results

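Transcription factors that are known for mesenchymal cells were read from RNA of SLMAP3-/- and WT mouse embryonic fibroblasts (MEFs), as the rows of the gene count table with the symbols Twist1, Twist2, Prrx1, Prrx2, Snai1, Snai2, Zeb1, Zeb2, Tcf21 and Foxc2. All 10 were found among 55401 listed genes, and 9 of them passed the filter on low counts that left 15461 genes for testing. Tcf21 did not pass. The RNA came from 8 lines, 4 SLMAP3-/- and 4 WT, each from a different B6C3F1 embryo at E14.5 and each sequenced as 1 library. All 8 lines, WT included, carry the SV40 large T antigen that was used to immortalize them, and the embryos had lost head and organs before the cells were taken. The SLMAP3-/- mice are a global knockout of an isoform of Slmap, which encodes a tail-anchored membrane protein of the STRIPAK complex. Each line is a culture of its own, so the spread between lines holds differences between embryos as well as those that arose during immortalization, and these cannot be told apart.

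These factors belong to families that switch on or maintain the mesenchymal state, in which cells lie in matrix, migrate and lack the tight contacts of an epithelium. Snail and Zeb proteins are zinc finger repressors that bind E-boxes in genes of epithelial junctions, such as Cdh1 for E-cadherin. Twist proteins and Tcf21 are basic helix-loop-helix factors that bind E-boxes as dimers. The Prrx proteins are homeodomain factors of limb and face mesenchyme, and Foxc2 is a forkhead factor of somites, vessels and the skeleton. Fibroblasts of embryonic limbs and body wall are known to express many of these genes, and the comparison asked whether their levels differ in cells without SLMAP3.

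The libraries held 49878808 to 63322675 estimated counts. Slmap was at 38.3 ± 4.94 CPM in SLMAP3-/- and at 137 ± 8.60 CPM in WT lines (mean ± SD, n = 4 each), and edgeR's quasi-likelihood test gave a log2 fold change of -1.84 with an adjusted p of 0.00119. CPM are the counts of a gene relative to the size of its library, with library sizes scaled by TMM, and adjusted p-values are by Benjamini-Hochberg over all 15461 genes. The 13 fibroblast markers summed to between 16080 and 24070 CPM in each line. Most of this sum came from Fn1, Col1a1, Col1a2 and Vim. Fap, of the same list, had 3 to 17 estimated counts per line and did not pass the filter. Dcn and Lum went down to 0.323 and 0.113 CPM in WT lines. Against the fibroblast sum, 10 epithelial markers summed to between 11.2 and 48.6 CPM and 8 blood markers to between 2.33 and 5.76 CPM. The 7 skeletal muscle markers summed to between 0.518 and 5.10 CPM and the 8 endothelial markers to between 14.9 and 64.3 CPM. Within these lists Cldn5 of endothelium, Tyrobp of myeloid cells and Myod1 of muscle were at 0 in every line, Pecam1, Cdh5 and Tie1 of endothelium were at 0 to 12 estimated counts, and other markers were present. Of the endothelial list, the tested genes were Erg at 24.3 CPM in SLMAP3-/- and 20.6 CPM in WT lines on average, Kdr at 17.4 and 13.6 CPM and Tek at 8.55 and 3.22 CPM. All 3 were higher in SLMAP3-/-, and Tek had an unadjusted p of 0.0320 and an adjusted p of 1.0 in edgeR. Cd68 of macrophages was at 3.24 and 2.50 CPM, and Pax3 of muscle precursors at 1.52 and 1.37 CPM. The 7 nerve and glial markers summed to between 86.3 and 275 CPM and the 6 cartilage markers to between 23.2 and 76.6 CPM. Most of the nerve and glial sum came from Map2, at 96.1 CPM in SLMAP3-/- and 142.6 CPM in WT lines on average. Tubb3 was at 14.7 and 13.7 CPM and Sox2 at 10.45 and 8.67 CPM, while Sox10 had 0 to 3 and Dcx 0 to 1 estimated counts. Of the cartilage list, Sox9 was at 18.65 and 21.2 CPM and Col2a1 at 12.4 and 15.6 CPM. Col9a1 had 0 to 1 and Matn1 0 to 5 estimated counts. The part of the cells behind these markers in the results was not tested. In bulk RNA, fewer cells that express a gene and less of its RNA per cell cannot be told apart.

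The upstream sequence of 3 factors is shown because the results turn on them. Snai1 and Zeb2 had the highest correlation over the 8 lines of any pair of the factors, and Twist2 had the lowest p between the genotypes. Each stretch is the 250 bases before an annotated start in RefSeq on GRCm38.p6, written 5′ to 3′ on the strand of the gene, and capitals mark the E-box CACCTG that Snail and Zeb proteins are known to bind, searched on both strands, where it reads CAGGTG on the other one. The stretch of Snai1 is chr2:167537945-167538194 on the + strand, that of Zeb2 chr2:45117443-45117692 on the - strand, which is the most upstream of its 4 RefSeq starts, and that of Twist2 chr1:91801211-91801460 on the + strand.
Snai1: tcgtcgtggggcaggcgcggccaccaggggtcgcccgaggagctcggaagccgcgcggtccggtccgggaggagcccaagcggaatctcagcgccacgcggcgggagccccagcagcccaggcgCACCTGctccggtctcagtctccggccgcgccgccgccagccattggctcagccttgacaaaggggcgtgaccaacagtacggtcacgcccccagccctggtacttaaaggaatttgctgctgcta
Zeb2: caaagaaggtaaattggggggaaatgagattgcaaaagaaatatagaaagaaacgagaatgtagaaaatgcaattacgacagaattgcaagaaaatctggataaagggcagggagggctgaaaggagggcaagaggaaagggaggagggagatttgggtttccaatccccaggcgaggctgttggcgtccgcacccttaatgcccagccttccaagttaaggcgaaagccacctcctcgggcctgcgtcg
Twist2: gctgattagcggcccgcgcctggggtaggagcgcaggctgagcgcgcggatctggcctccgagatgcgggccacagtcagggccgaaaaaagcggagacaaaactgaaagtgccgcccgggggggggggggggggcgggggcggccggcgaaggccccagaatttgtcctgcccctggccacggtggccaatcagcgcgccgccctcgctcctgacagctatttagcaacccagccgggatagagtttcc
Snai1 held 1 match, whose first base is 126 bases before the start. The other 9 starts of the 7 factors that have an entry, the 4 of Zeb2 and those of Twist1, Twist2, Prrx1, Prrx2 and Tcf21, held no match. Foxc2, Snai2 and Zeb1 have no entry there. Over all 27025 genes in the table, 19.4% had a match in the same window. A match is a description of letters and not a binding site.

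Read per kilobase of transcript, taken as the mean length over the protein-coding transcripts of a gene, the Prrx pair stood at the top. Prrx1 was at 120 ± 33.1 CPM per kb over the 8 lines (SD), above 95.1% of the tested genes, and Prrx2 at 94.8 ± 25.05 CPM per kb. Twist1 followed at 57.8 ± 7.84 CPM per kb. Zeb1 was next at 45.6 ± 5.82, Snai1 at 36.5 ± 10.9 and Snai2 at 23.6 ± 5.73 CPM per kb. The lower end was made of Twist2 at 21.7 ± 3.86, Zeb2 at 18.9 ± 3.04 and Foxc2 at 11.5 ± 4.49 CPM per kb, the last above 54.5% of the tested genes. Of the 8 steps in this order, Snai1 over Snai2 was the one that held in every line, and in each other step at least 1 line had the order turned. Some places depended on the length used. With the longest transcript of each gene Zeb1 fell from rank 4 to rank 6 and Zeb2 from 8 to 9. With merged exons Zeb1 fell to rank 8 and Prrx2 and Prrx1 changed places, while Twist1 stayed at rank 3. Twist1, Snai1 and Snai2 have 1 annotated transcript each, so their own values are the same under every length. The step of Snai1 over Snai2 could therefore not change with the length used.

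Of the Twist pair, Twist2 was the factor with the clearest difference between the genotypes. Twist2 (chr1:91801461-91848028, + strand), known for dermis and other subcutaneous mesenchyme, was at 54.4, 45.7, 39.4 and 46.8 CPM in SLMAP3-/- replicates 1 to 4 and at 35.8, 43.7, 30.8 and 37.1 CPM in WT replicates 1 to 4. SLMAP3-/- was the higher in 15 of 16 pairs of lines, and the groups overlapped through SLMAP3-/- replicate 3 and WT replicate 2. The log2 fold change was 0.34 with an SE of 0.14 and a 95% interval of 1.02- to 1.56-fold. edgeR gave an unadjusted p of 0.0356 and an adjusted p of 1.0, so the difference did not pass the test. The exact permutation test over the lines gave p = 0.0571 (two-sided, n = 4 each), where 0.0286 is the smallest p it can reach. Leaving out each line in turn moved edgeR's unadjusted p to between 0.0136 and 0.100, and 6 of the 8 fits were over 0.05. An exon of the antisense gene Gm29100 overlaps an exon of Twist2, and with 82 to 142 estimated counts per line against 1627 to 3140 for Twist2 it was the far lower of the pair. The libraries were stranded, and whether the counting used the strand is not given in the sources used here. The highest count of Gm29100, like that of Twist2, was in SLMAP3-/- replicate 1. These counts are not scaled to the size of the library. The next highest, 129, was in WT replicate 1, the largest library at 63322675 counts, against 108 in SLMAP3-/- replicate 2 with 50952730. The order of these lines therefore depends on library size, and Twist2 was at 35.8 and 45.7 CPM in them. The part of Gm29100 in the level of Twist2 was not tested.

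Twist1 (chr12:33957671-33959829, + strand), needed in the embryo for cranial neural tube closure and limb outgrowth, did not differ between the genotypes beyond the spread of the lines. It was at 82.4, 97.0, 99.8 and 91.7 CPM in SLMAP3-/- and at 76.0, 86.3, 116 and 103 CPM in WT lines. The SLMAP3-/- lines all lay within the WT range. This gave a log2 fold change of -0.04 ± 0.14 (SE), with a 95% interval of 0.781- to 1.21-fold, and it turned to 0.01 without SLMAP3-/- replicate 1 and to 0.07 without WT replicate 3. In SLMAP3-/- replicate 1 the 570 other tested genes of chromosome 12 had a median of 0.21 below their means over the lines on the log2 scale, the lowest median of any of the 19 autosomes in any line, and Twist1 was 0.18 below its own mean there. The part of this shift in the level of Twist1 was not tested. For the other 8 tested factors, the medians of the other genes of their chromosome covered a range of 0.04 to 0.17 over the lines, and the factors themselves a range of 0.52 to 1.61 on the same scale.

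Prrx1 and Prrx2, homeodomain factors that act together in limb and face mesenchyme, had almost equal genotype means but spread widely between lines. Prrx1 (chr1:163245119-163313710, - strand) was at 797, 679, 417 and 710 CPM in SLMAP3-/- and at 445, 578, 671 and 972 CPM in WT lines. Its lowest line was thus SLMAP3-/- and its highest WT, with a 2.33-fold distance between them. Prrx1 had a log2 fold change of -0.03 ± 0.27 (SE), with an interval of 0.638- to 1.49-fold.
Prrx2 (chr2:30834972-30881251, + strand) was at 119, 111, 112 and 131 CPM in SLMAP3-/- and at 53.8, 124, 137 and 165 CPM in WT lines. The SLMAP3-/- lines lay close together, while WT replicate 1 was below and WT replicates 3 and 4 above all of them. Prrx2 had a log2 fold change of -0.02 ± 0.29, with an interval of 0.625- to 1.55-fold. The direction of both values turned when single lines were left out. Without WT replicate 4 Prrx1 gave 0.21 and Prrx2 0.17, and neither passed the test.

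The Snail pair, repressors of epithelial junction genes, had fold changes of opposite sign, and neither passed the test. Snai1 (chr2:167538195-167542814, + strand) was at 54.6, 43.2, 57.9 and 89.2 CPM in SLMAP3-/- and at 35.1, 71.6, 49.1 and 72.6 CPM in WT lines. The highest line was SLMAP3-/- replicate 4 and the lowest WT replicate 1, with the rest interleaved. Between the genotypes the log2 fold change was 0.10 ± 0.28, with an interval of 0.686- to 1.68-fold, and it was -0.14 without SLMAP3-/- replicate 4 and -0.07 without WT replicate 1.
Snai2 (chr16:14705852-14709385, + strand), also called Slug and known for neural crest migration, was at 43.1, 37.9, 47.2 and 50.5 CPM in SLMAP3-/- and at 39.1, 36.4, 56.9 and 70.7 CPM in WT lines. WT replicates 3 and 4 stood above every SLMAP3-/- line, and WT replicates 1 and 2 lay in the lower part of all lines. The log2 fold change was -0.19 ± 0.21, with an interval of 0.627- to 1.23-fold, and without WT replicate 4 it was 0.02. The third gene of the family, Snai3, had 1 to 14 estimated counts per line and was not tested.

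Zeb1 and Zeb2, large repressors with zinc finger clusters around a homeodomain, had intervals that were, with those of the Twist pair, the 4 narrowest of the 9. Zeb1 (chr18:5591860-5775467, + strand) was at 123, 122, 107 and 119 CPM in SLMAP3-/- and at 132, 121, 93.8 and 91.5 CPM in WT lines. WT replicates 3 and 4 were the lowest of all, WT replicate 1 the highest, and the SLMAP3-/- lines lay between them. For Zeb1 the log2 fold change was 0.11 ± 0.13, with an interval of 0.874- to 1.32-fold.
Zeb2 (chr2:44983632-45117395, - strand) was at 45.6, 44.7, 41.6 and 57.5 CPM in SLMAP3-/- and at 35.9, 52.7, 44.9 and 57.1 CPM in WT lines. Each genotype had 1 line near the top of the range, SLMAP3-/- replicate 4 and WT replicate 4. For Zeb2 it was -0.01 ± 0.16, with an interval of 0.769- to 1.28-fold. Zeb2os, which is transcribed from the opposite strand and shares exon sequence positions with Zeb2, had 20 to 62 estimated counts per line. These counts are not scaled to the size of the library. The lowest, 20, was in WT replicate 1, where Zeb2 was also lowest. The highest, 62, was in SLMAP3-/- replicate 3 with a library of 59854229 counts, against 58 in WT replicate 2 with 54981402. The order of these lines therefore depends on library size, and Zeb2 was at 41.6 and 52.7 CPM in them. The part of Zeb2os in the level of Zeb2 was not tested. Gm10125 on the strand opposite to Zeb1 had 32 to 61 estimated counts.

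Foxc2 (chr8:121116171-121118895, + strand) had the largest SD between lines when both genotypes were pooled. It was at 26.7, 49.2, 20.1 and 36.3 CPM in SLMAP3-/- and at 36.2, 45.1, 17.7 and 18.7 CPM in WT lines. High and low lines occurred in both genotypes. The log2 fold change was 0.17 ± 0.37, and its interval of 0.623- to 2.03-fold was the widest of the 9. Without SLMAP3-/- replicate 2 the value was -0.08. Of the 31-base stretches of its transcript, 1.37% occur in other genes, mostly in Foxc1, so a small share of its reads could have been divided between them. Gm20388, annotated as protein-coding over Foxc2 on the same strand without shared exon positions, had 0 to 1820 estimated counts per line. The part of Gm20388 in the level of Foxc2 was not tested.
Tcf21 (chr10:22817281-22820174, - strand), a factor of fibroblast precursors in heart, lung and kidney, had 0 counts in all 8 lines. A count of 0 allows up to 3 counts, which is 0.0474 to 0.0601 CPM in these libraries, for counting error alone. Gm10824, annotated on the opposite strand without shared exon positions, had 0 to 30 estimated counts.

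**Figure D1:**
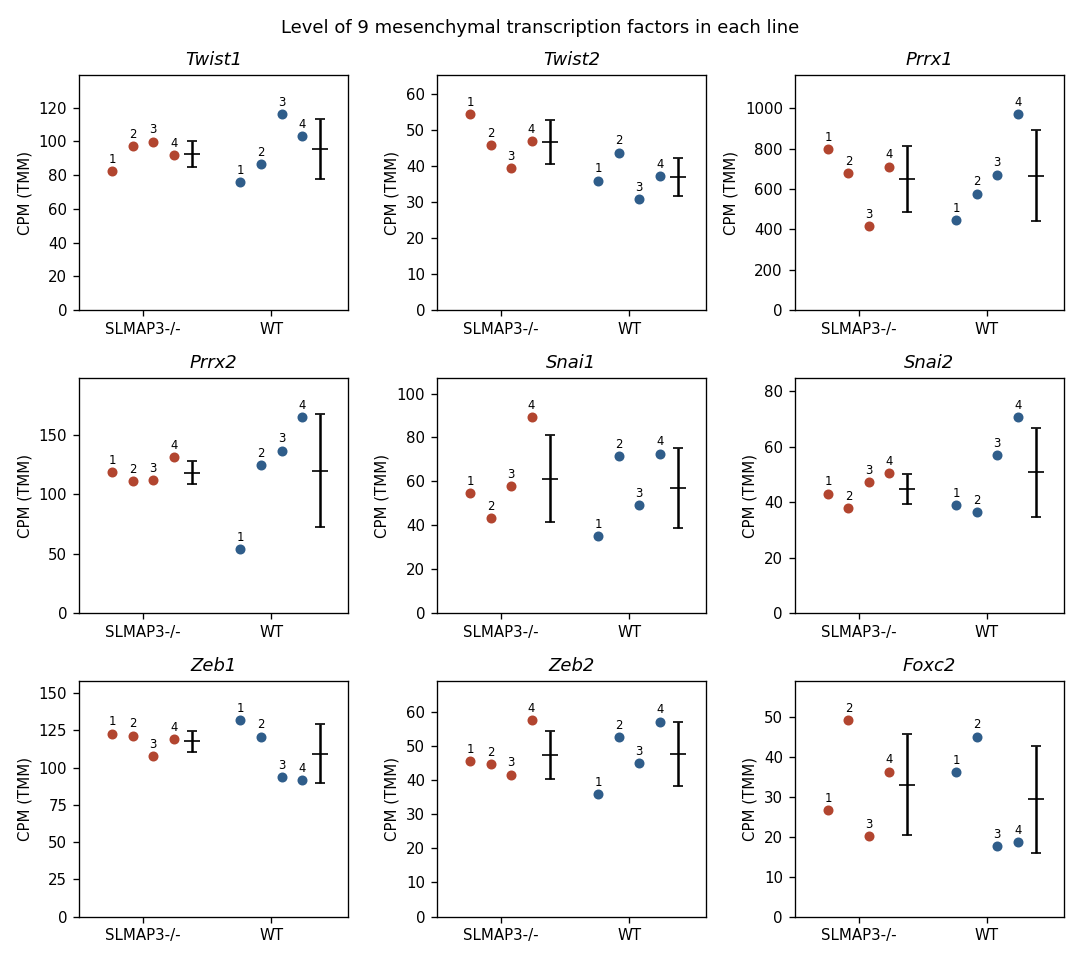
CPM of the 9 factors that passed the filter in each line, with SLMAP3-/- lines in red, WT lines in blue and the replicate number above each point; black bars are the mean and SD of 4 lines. The points of the genotypes overlap in every panel, and Twist2 comes closest to separate groups, with 15 of 16 pairs of lines higher in SLMAP3-/-.

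None of the 9 factors passed the test in edgeR at an adjusted p under 0.05, where 0.00647% of all tested genes did, which is Slmap alone. DESeq2 also called none of them, against 0.0325% of the 33816 genes to which it gave an adjusted p. At an unadjusted p under 0.05 in edgeR there was 1 of the 9, Twist2, and over all tested genes the share was 1.81%. No factor had lines of the genotypes that were fully apart, against 1.25% of all tested genes. The share of 1 in 9 rests on a single gene. The median log2 fold change of the 9 was -0.01 and that of all tested genes -0.0014, with 4 of the 9 higher and 5 lower in SLMAP3-/-. The 9 intervals covered between 0.623- and 2.03-fold, so a level 2-fold higher in SLMAP3-/- lay outside all of them but that of Foxc2, and a level 2-fold lower lay outside all 9.

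**Figure D2:**
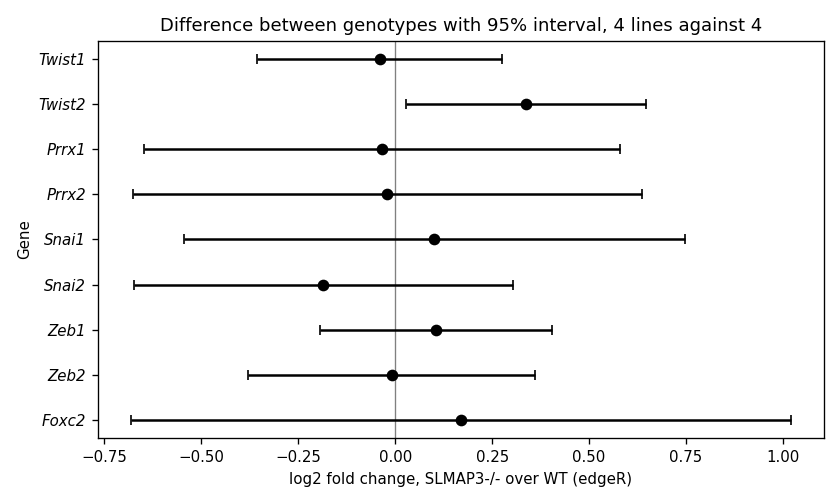
Log2 fold change of SLMAP3-/- over WT for the 9 factors from edgeR, with the 95% interval as a bar. All intervals but that of Twist2 (0.03 to 0.65) include 0, and Foxc2 has the widest.

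Paralogs of a family can bind the same sites, so the balance within each pair was compared as the log2 ratio of CPM in each line. Twist2 to Twist1 was -0.999 ± 0.31 in SLMAP3-/- and -1.36 ± 0.42 in WT lines (mean ± SD, n = 4 each), with an exact permutation p = 0.200 and an adjusted p = 0.714 over the 4 pairs. Prrx2 to Prrx1 was -2.43 ± 0.37 and -2.53 ± 0.37, with exact p = 0.714. Snai2 to Snai1 was -0.41 ± 0.28 and -0.16 ± 0.55, with exact p = 0.457, and Zeb2 to Zeb1 was -1.32 ± 0.19 and -1.20 ± 0.50, with exact p = 0.714. No ratio differed between the genotypes beyond the spread of the lines. No pair of paralogs had a correlation over the lines that passed the test. Pearson's r was -0.51 for the Twist pair, 0.70 for the Prrx pair, 0.41 for the Snail pair and -0.37 for the Zeb pair (n = 8), with permutation p-values over all pairings of 0.196, 0.0426, 0.318 and 0.371 and adjusted values of 0.371, 0.171, 0.371 and 0.371. Spearman's rho was -0.43, 0.57, 0.40 and -0.43, with an adjusted permutation p of 0.327 for each. Without the 2 lines farthest from the median of the first gene, r was 0.20, 0.38, 0.52 and -0.21, and without those farthest from the median of the second gene it was -0.85, 0.64, 0.29 and -0.25, so the Twist pair changed sign with the lines left out. Without WT replicate 1 the Twist pair gave r = -0.93 with an adjusted permutation p of 0.0175, the only such change among these pairs.

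For 8 of the 9 factors the SD between lines of one genotype was larger than the difference between the genotypes on the log2 scale, with Twist2 as the exception. Within a genotype the SD of log2 CPM was 0.62 for Foxc2, larger than that of 79.1% of the tested genes, 0.51 for Prrx2, 0.47 for Snai1 and 0.44 for Prrx1. The value of Prrx2 rested on WT replicate 1, without which its SD was 0.16, below those of Twist2 at 0.22 and Twist1 at 0.17 in the same lines, while that of Foxc2 was 0.64 and that of Snai1 0.39. It was 0.34 for Snai2 and 0.25 for Zeb2, and the most even were Twist1 at 0.21, Twist2 at 0.20 and Zeb1 at 0.20. The median over the 9 was 0.34, against 0.28 over all tested genes. Certain lines recurred at the ends. WT replicate 1 was the lowest line for Twist1, Prrx2, Snai1 and Zeb2 and the highest for Zeb1, and WT replicate 4 was the highest for Prrx1, Prrx2 and Snai2 and the lowest for Zeb1. Against the mean over the lines, WT replicate 1 was at -1.08 for Prrx2, -0.69 for Snai1 and -0.52 for Prrx1 on the log2 scale.

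**Figure D3:**
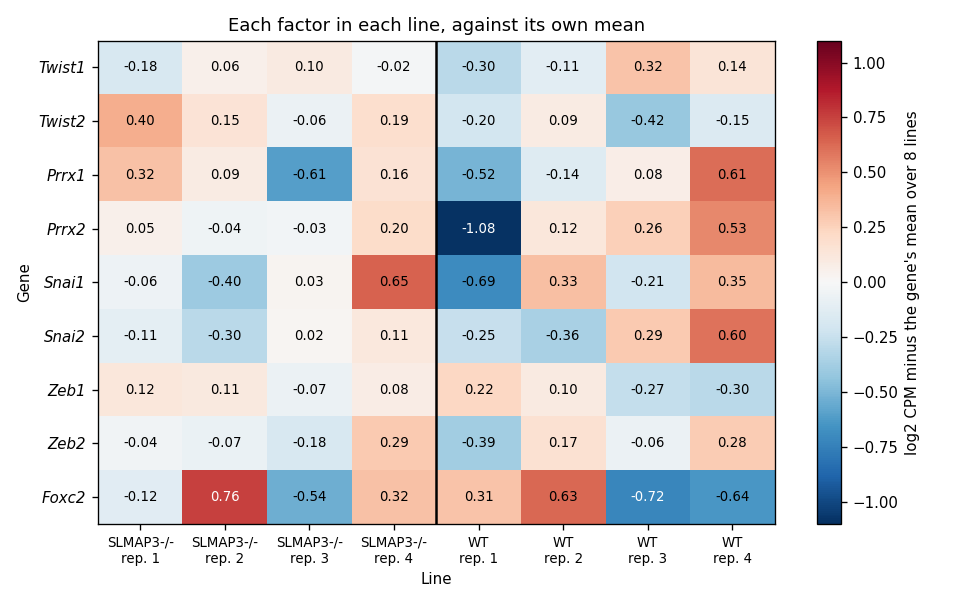
Log2 CPM of each factor in each line minus its mean over the 8 lines, red above and blue below, with the genotypes divided by the black line. The extreme values lie in single lines of both genotypes, such as Prrx2 in WT replicate 1 and Foxc2 in SLMAP3-/- replicate 2.

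All 36 pairs among the 9 factors were then correlated over the 8 lines, a family added after the values had been seen. All points of a line share its library and scaling. Pearson's r was above 0 for 22 pairs and below 0 for 14, and 4 pairs had an adjusted permutation p under 0.05. How often pairs of other genes reach such values in these 8 lines was not tested. The 4 pairs are therefore not shown to be particular to the factors. Snai1 and Zeb2 varied together, with r = 0.91 (permutation p = 0.00298) and rho = 0.86, and so did Prrx2 and Zeb2, with r = 0.82 (permutation p = 0.00528) and rho = 0.79. Zeb1 ran against Twist1, with r = -0.87 (permutation p = 0.00275) and rho = -0.90, and against Snai2, with r = -0.88 (permutation p = 0.00444) and rho = -0.76. The adjusted permutation p was 0.0475 for each r and 0.164 or more for every rho. Without the 2 lines farthest from the median of the first gene, r was 0.76 for Snai1 and Zeb2 (permutation p = 0.0917), 0.54 for Prrx2 and Zeb2 (p = 0.268), -0.76 for Twist1 and Zeb1 (p = 0.0528) and -0.53 for Snai2 and Zeb1 (p = 0.306). Without the 2 lines farthest from the median of the second gene, r was 0.83, 0.82, -0.84 and -0.53 in the same order. The sign of each relation was kept with 6 lines, at 0.53 to 0.84 in size, while the unadjusted p for the lines farthest in the first gene was over 0.05 for each. WT replicate 1 was among the lines left out by the first gene for 3 pairs and by the second gene for none of the 4, and with only that line left out r was 0.84, 0.70, -0.84 and -0.87. Centred within the genotypes, the 4 values of r were 0.92, 0.82, -0.90 and -0.88, so each relation had about the same size within the genotypes, with adjusted permutation p-values of 0.0527 to 0.0661. Snai1, Zeb2 and Prrx2 all lie on chromosome 2. The median of the 1196 other tested genes of that chromosome ranged from -0.03 to 0.07 over the lines. On that scale Prrx2 covered 1.61, Snai1 1.34 and Zeb2 0.68. A median over the whole chromosome does not show a shift in a part of it, and the part of the shared chromosome in these relations was not tested.

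**Figure D4:**
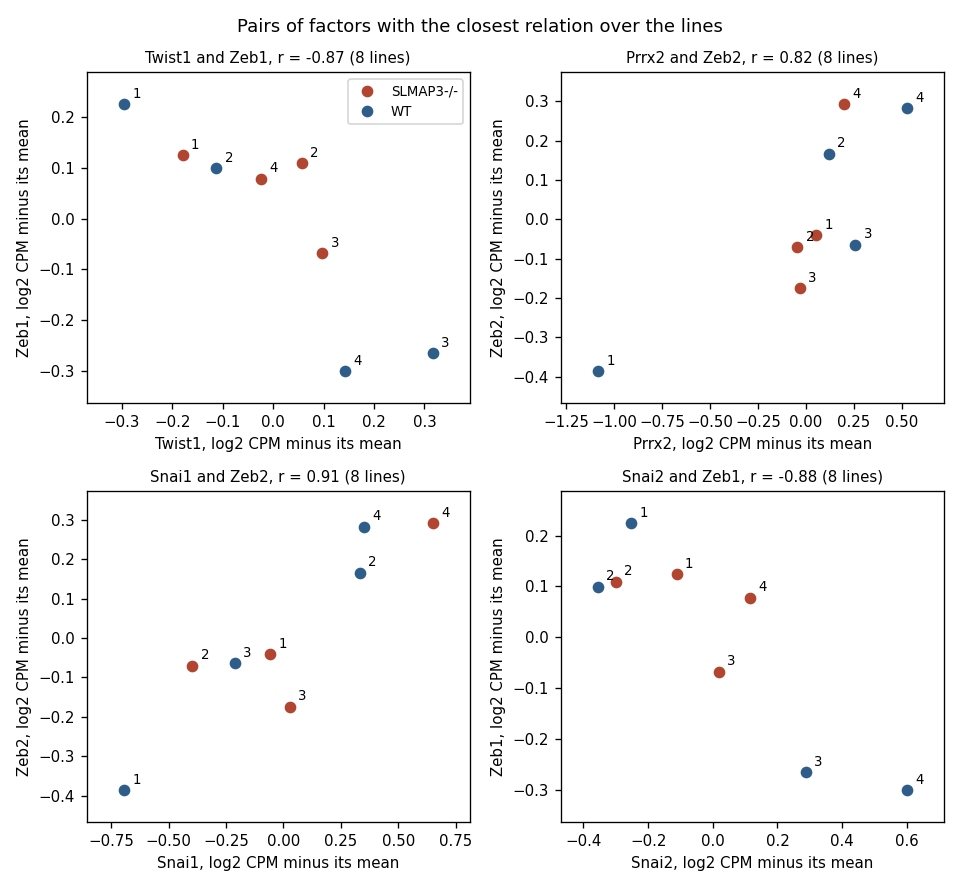
Log2 CPM minus the mean over the lines for the 4 pairs with the lowest p, 1 point per line with its replicate number, red for SLMAP3-/- and blue for WT. WT replicate 1 lies at one end of the points for Twist1 with Zeb1, Prrx2 with Zeb2 and Snai1 with Zeb2, and SLMAP3-/- and WT lines are mixed along each of them.

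The tested genes whose pattern over the 8 lines was most like that of the 3 factors with the largest SD, Foxc2, Prrx2 and Snai1, were named by Pearson's r, as a description. Prrx2 would not be among the 3 without WT replicate 1. For Snai1 these were Col6a2 with r = 0.99 and Col6a1 with r = 0.98, which encode chains of collagen VI, and Id1 with r = 0.96, an inhibitor of basic helix-loop-helix factors. Col6a2 was at 366 CPM in WT replicate 1 and at 800 CPM in SLMAP3-/- replicate 4, the lines where Snai1 was lowest and highest, and Id1 was at 47.0 and 149 CPM in the same lines. For Prrx2 they were Tcta with r = 0.98, Pigyl with r = 0.98 and the protease inhibitor Serpinb8 with r = 0.98, the last at 2.39 CPM in WT replicate 1 and 24.7 CPM in WT replicate 4. For Foxc2 they were Ankrd49 with r = 0.98, Imp4, a protein of ribosomal RNA processing, with r = 0.97, and Pgs1, an enzyme of phospholipid synthesis, with r = 0.97. These were the highest of 15461 genes over n = 8 lines. The range was narrow for the neighbours of Foxc2, with Ankrd49 between 16.9 and 23.3 CPM while Foxc2 went from 17.7 to 49.2 CPM.

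Genes that act around the factors were described from 5 lists, none of which had a gene past the test in edgeR or DESeq2. Over all tested genes, 1.81% had an unadjusted p under 0.05 in edgeR, and such genes in the lists are given beside that share. Of 24 mesenchymal structural and surface genes, 23 were tested, with 6 higher and 17 lower in SLMAP3-/- and a median log2 fold change of -0.20 against -0.0014 over all tested genes. That median lay between -0.18 and -0.09 when single lines were left out. The highest mean CPM, not set per length, were those of Fn1, fibronectin, at 6665 ± 1560 CPM in SLMAP3-/- and 7632 ± 1170 CPM in WT lines, and Col1a1, a chain of collagen I, at 5045 ± 521 and 6204 ± 729 CPM. Col1a1 alone in the list had an unadjusted p under 0.05 in edgeR, 0.0458 at a log2 fold change of -0.30, with an adjusted p of 1.0 in edgeR, and its groups overlapped. Postn, the matrix protein periostin, had the highest fold change of the list, 1.51 ± 1.14 (SE), and it rested on 1 line. It was at 3480 CPM in SLMAP3-/- replicate 1 and at 212, 211 and 164 CPM in the other SLMAP3-/- lines, against 59.5, 553, 207 and 607 CPM in WT lines, and without SLMAP3-/- replicate 1 the log2 fold change was -0.87. The lowest was Lum, the proteoglycan lumican, at -1.13 ± 1.08, with 18.5 CPM in WT replicate 3 and under 5 CPM in all other lines, and a log2 fold change of 0.54 without that line.

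Epithelial genes that Snail and Zeb factors are known to repress covered a wide range. Of 25 listed, 10 did not pass the filter on low counts, while Mpp5, Dsp, Krt19, Patj and Pard6b were each above 10 CPM on average in both genotypes. There were 15 tested, with 5 higher and 10 lower in SLMAP3-/- and a median of -0.16 that ranged from -0.40 to 0.16 with single lines left out. None had an unadjusted p under 0.05. Cdh1 had 20 to 50 estimated counts per line, at 0.745 ± 0.149 CPM in SLMAP3-/- and 0.541 ± 0.180 CPM in WT lines. Together the list summed to between 90.2 and 174 CPM. The highest mean CPM were those of Mpp5 at 33.8 ± 5.43 and 42.3 ± 5.84 CPM and Patj at 19.4 ± 1.07 and 17.4 ± 2.44 CPM, scaffold proteins of the Crumbs polarity complex. The ends of the list were Krt19, a keratin, at 0.57 ± 0.50 on the log2 scale and Cldn1, a tight junction claudin, at -1.002 ± 0.92. Krt19 turned to -0.02 without SLMAP3-/- replicate 2, where it was at 43.9 CPM, and Cldn1 to 0.35 without WT replicate 3.

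Of the 9 dimer partners and Id inhibitors, which set whether Twist proteins find a partner, 8 were tested, with 4 higher, 4 lower and a median of 0.01. Tcf4, an E protein that pairs with Twist proteins, was at 283 ± 91.7 CPM in SLMAP3-/- and 272 ± 31.3 CPM in WT lines. Id3, which binds E proteins and keeps them from DNA, was at 213 ± 68.3 and 192 ± 65.8 CPM. The gene that stood out was Hand2, a basic helix-loop-helix factor of limb and heart, at 4.71, 3.40, 4.18 and 3.01 CPM in SLMAP3-/- and 6.71, 4.31, 23.4 and 10.7 CPM in WT lines. Hand2 had a log2 fold change of -1.56 ± 0.49 (SE), with an unadjusted p of 0.0116 and an adjusted p of 1.0 in edgeR, and its groups overlapped at SLMAP3-/- replicate 1 and WT replicate 2. Without WT replicate 3 the value was -0.92.

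All 25 corepressors and stability regulators of Snail and Zeb factors were tested, with 9 higher, 16 lower, a median of -0.02 and none with an unadjusted p under 0.05. They were the most even group. Ctbp1, a corepressor that Zeb proteins recruit, was at 257 ± 0.781 CPM in SLMAP3-/- and 257 ± 23.8 CPM in WT lines, and the histone deacetylase Hdac1 at 226 ± 8.89 and 230.2 ± 16.5 CPM. The log2 fold changes ran from -0.09 ± 0.08 for Fbxo45, a ubiquitin ligase subunit, to 0.35 ± 0.21 for Usp27x, a deubiquitinase.
Of 50 other mesenchymal and positional factors 42 were tested, with 19 higher, 23 lower and a median of -0.03. Here 3 of the 42 had an unadjusted p under 0.05 in edgeR, against 1.81% of all tested genes. None passed after adjustment. Mecom, a zinc finger factor with the highest mean CPM of the list, was at 206 ± 19.9 CPM in SLMAP3-/- and 167 ± 23.3 CPM in WT lines (log2 fold change 0.30, unadjusted p = 0.0394 and adjusted p = 1.0 in edgeR). Foxp1, a forkhead factor, was at 181 ± 34.6 and 178 ± 45.3 CPM. Ebf2 had the highest fold change, 2.39 ± 0.95, and it fell to 0.66 without SLMAP3-/- replicate 2, the 1 line in which it was at 9.05 CPM while all others were under 1.5 CPM. Barx1, a homeodomain factor of face and stomach mesenchyme, had the lowest, -3.21 ± 1.41, with 0.0173 to 0.680 CPM in SLMAP3-/- lines and 2.65, 3.61 and 1.97 CPM in WT replicates 2 to 4, but 0 in WT replicate 1. Its log2 fold change was -4.81 without SLMAP3-/- replicate 2 and -2.79 without WT replicate 3. The third gene with an unadjusted p under 0.05, Foxf1, was at 1.38 CPM in SLMAP3-/- and 3.20 CPM in WT lines on average, and it is named after its value was seen.

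**Figure D5:**
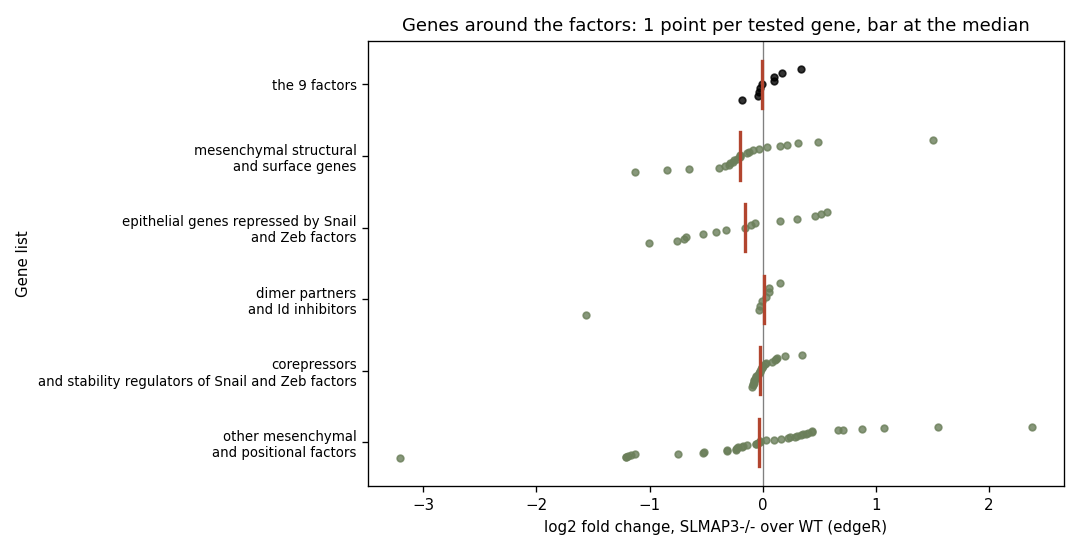
Log2 fold change of SLMAP3-/- over WT from edgeR for the 9 factors and for the tested genes of the 5 lists, 1 point per gene in rising order, with a red bar at the median. The 9 factors and the 25 corepressors and stability regulators lie close to 0, and the points beyond 1 in size are genes such as Postn, Ebf2 and Barx1 whose values differ widely between lines.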

How the data were processed

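Stranded messenger RNA libraries of 4 SLMAP3-/- and 4 WT MEF lines were sequenced. The authors quantified reads with Salmon against the transcripts of GENCODE M25 (GRCm38), and the values they deposited are estimated counts per gene, with a scaling for transcript length but no normalization across libraries. Versions of Salmon and DESeq2 are not given in the sources used here. A deposited table of the authors' DESeq2 comparison, with fold changes, standard errors and p-values, was not used.

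Counts were rounded, filtered with filterByExpr (minimum count 10), scaled by TMM and tested with the quasi-likelihood test of edgeR 4.0.16 in R 4.3.3, SLMAP3-/- against WT, without covariates, at an adjusted p under 0.05. For log2 CPM the prior count was 2. Exact permutation tests, two-sided, were computed in Python 3.11.15 with numpy 2.4.6, over 70 arrangements of the lines or 40320 pairings. Ranks for Spearman's rho came from scipy 1.17.1. Alternatives were DESeq2 1.42.0, limma-voom (limma 3.58.1), DESeq2's size factors, no filter, a minimum of 10 counts per library, robust empirical Bayes, summed Y-linked expression as a covariate, a block for the replicate number, a prior count of 0.5, other transcript lengths and leaving out each line. The members and gene lists were chosen with earlier results of these data known. Genes named from the lists by a rule set beforehand are the highest and lowest fold change and the 2 highest mean CPM of each list, and any called. Cdh1, Dsp, Pard6b, Snai3 and Foxf1 are named outside this rule, and none of them was called. Positions, lengths and shared stretches of 31 bases came from GENCODE M21 of the same build. Upstream sequences came from RefSeq (GRCm38.p6), with 7 of the 10 factors matched.

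Totals were 49878808 to 63322675 counts, and the 9 tested factors had at least 936 counts in every line, so the spread between lines limits precision. The 95% intervals of edgeR are for the difference between the genotypes, with that spread entering through the SE. They do not give the range of single lines. On simulated counts for 15461 genes of these lines with 200 changed 2-fold, edgeR recovered 35.5% with 4 false calls, and with 4-fold changes 77.5% with 3. The 200 were drawn from all tested genes at any level and spread, and the counts of each gene were drawn separately. These shares are therefore not those for the 9 factors.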

Additional observations from a re-analysis of the deposited data

How the results depend on the processing

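No factor was called under any of the 16 alternatives to the main fit. Over all genes DESeq2 called 11 in place of 1, and the replicate block called 0, with Slmap at an adjusted p of 0.171. The labels do not say that lines of 1 replicate number are paired. The deviations of the 4 such pairs from their genotype means correlated at -0.16, 0.06, 0.19 and 0.00. The sample names of SLMAP3-/- replicate 3 and WT replicate 4 share a number. Whether these embryos are litter mates is not stated, and no pairing was built on it. The cause of the lost call was not tested. With the replicate block, Prrx2 turned from -0.02 to 0.079 and Zeb2 from -0.01 to 0.0016 on the log2 scale, and with limma-voom to 0.089 and 0.0020. With single lines left out, the log2 fold change covered -0.13 to 0.068 for Twist1, -0.18 to 0.21 for Prrx1, -0.26 to 0.17 for Prrx2, -0.14 to 0.24 for Snai1, -0.31 to 0.018 for Snai2, -0.12 to 0.091 for Zeb2 and -0.082 to 0.45 for Foxc2. The directions of these 7 factors therefore depend on single lines, while Twist2 and Zeb1 kept theirs under every alternative. The difference in the ratio of Prrx2 to Prrx1 covered -0.069 to 0.21 and that of Zeb2 to Zeb1 -0.34 to 0.055, and r of the Twist pair -0.93 to -0.14. The number of factors with genotypes apart was 0 to 1, and it was 1, Twist2, without SLMAP3-/- replicate 3 or without WT replicate 2. The groups of Twist2 overlapped through these lines alone, so leaving out either one sets them apart by construction. The share of all tested genes that are apart with a line left out was not counted. The 4 correlations past the threshold lost it in 38 of their 44 alternatives, all chosen after seeing the data, with r at 0.70 to 0.96 in size over the 44 and no change of sign. With 4 lines a genotype, the spread between lines limits every comparison here.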
